A study of Caenorhabditis elegans with 10 samples.

Results

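Base excision repair is the pathway that replaces single damaged or misplaced bases in DNA, and 9 of its genes in Caenorhabditis elegans were followed here: the DNA glycosylase genes ung-1 and nth-1, the AP endonuclease genes exo-3 and apn-1, the poly(ADP-ribose) polymerase genes parp-1 and parp-2, and the resynthesis and ligation genes pcn-1, crn-1 and lig-1. The genes were matched by symbol in the platform annotation, and all 9 were found among the 17118 genes that the arrays measured. For each gene the value came from a probe set that carries its symbol alone, and where a gene had several such probe sets, from the one with the highest mean over all 10 arrays. This choice used no difference between the strains.

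The arrays hold total RNA of whole, untreated worms of mixed stage. The xpa-1 (ok698) I mutant was measured on 5 arrays and the Bristol N2 wild type on 5. Both strains were grown at 20 °C on agar plates with HT115(DE3) Escherichia coli and collected by sucrose floatation, a separate collection of many plates for each replicate. The mutant is represented by 1 deletion allele, and a collection pools all stages and tissues. XPA-1, the nematode counterpart of human XPA, works in nucleotide excision repair, which removes bulky lesions, so the comparison shows the levels of base excision repair transcripts in worms that lack a factor of the other excision pathway, with no DNA-damaging treatment.

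In base excision repair a glycosylase first cuts the damaged base from the sugar, and an AP endonuclease nicks the strand at the abasic site that remains. DNA synthesis fills the gap and a ligase seals it, and poly(ADP-ribose) polymerases sense the strand breaks that arise on the way. Several of the later factors also serve DNA replication, and in adult hermaphrodites dividing cells lie mainly in the germline.

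The values are log2 probe set signals. Each difference is the mean log2 signal in xpa-1 less that in N2, and its standard error (SE) and 95% interval come from a limma fit over all genes with strain as the only term. A gene passed when its p, adjusted over all 17118 genes by the Benjamini-Hochberg method, was under 0.05. Signals of different probe sets are not comparable as transcript amounts, so no gene is ranked against another by level. The xpa-1 transcript read 0 to 1.58 on the mutant arrays and 6.38 to 6.88 on the N2 arrays, in the order of the labels. Array medians lay between 4.00 and 4.25. Arrays of the same strain correlated across genes with r of 0.953 to 0.984 and arrays of different strains with r of 0.958 to 0.980, where genes are not independent replicates.

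None of the 9 genes differed between xpa-1 and N2 worms beyond the spread between replicates. In limma 0 of 9 passed, where 0.111% of all genes did, and 0 of 9 had an unadjusted p under 0.05, where 3.32% of all genes did. The xpa-1 and N2 arrays overlapped for 9 of 9 genes, and 0.374% of all genes had strains that did not overlap. The differences ran from -0.05 for parp-2 to 0.18 for ung-1, with 6 of 9 above 0 and a median of 0.03. The median over all genes was 0.02, and over the 5181 genes of a similar mean signal it was 0.04, with 66.2% above 0. The lowest value of any of the 9 genes was 5.25, far above the floor of 0 of the deposited scale.

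**Figure D1:**
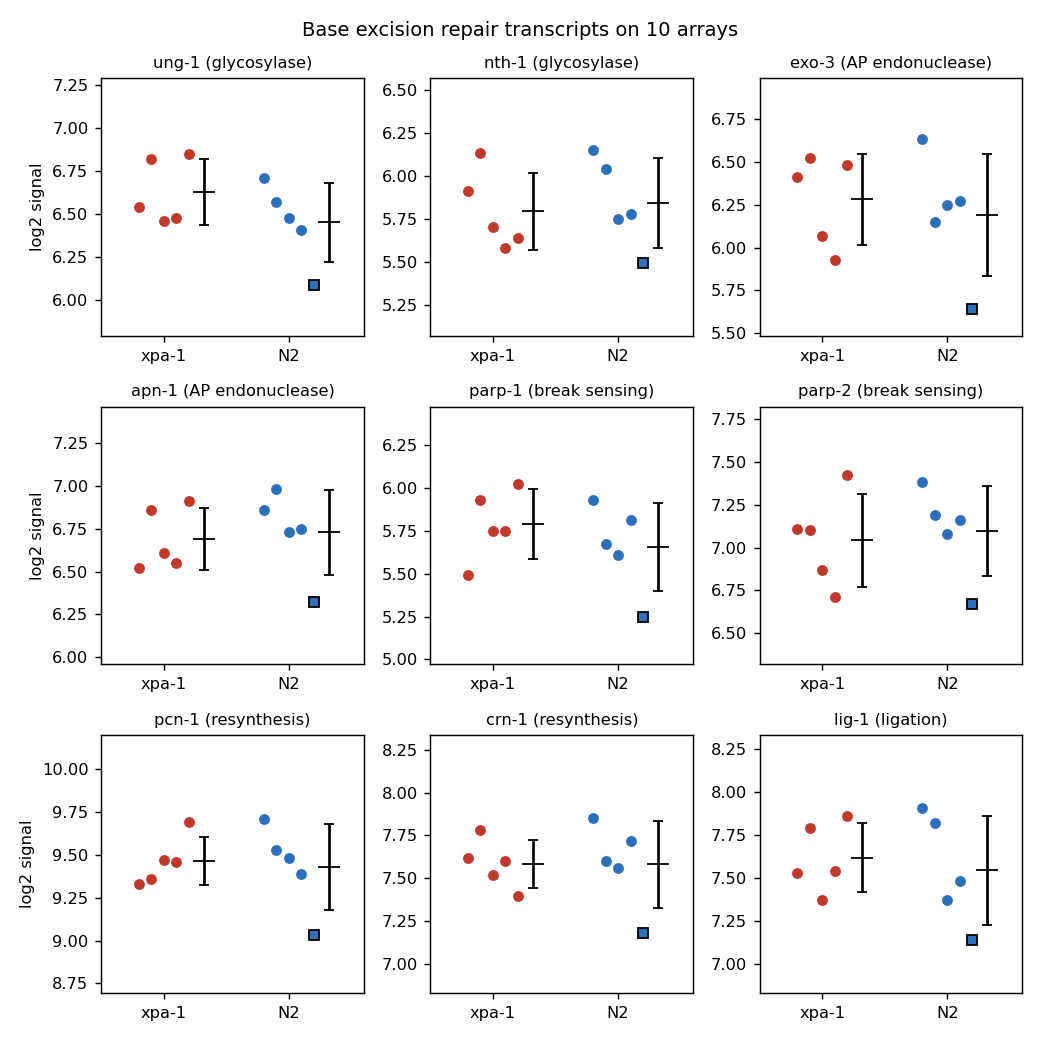
Log2 signal of each gene on the 5 xpa-1 arrays (red, left) and the 5 N2 arrays (blue, right), replicates 1 to 5 from left to right, with the mean and SD of each strain as a black bar. Each panel has its own vertical range of equal height, the strains overlap in all 9 panels, and N2 replicate 5 (outlined square) is the lowest of the 10 arrays in every panel.

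The glycosylases begin repair. The uracil-DNA glycosylase gene ung-1 (Y56A3A.29, chromosome III), whose product removes uracil from DNA, read 6.54, 6.82, 6.46, 6.48 and 6.85 on xpa-1 arrays 1 to 5, against 6.71, 6.57, 6.48, 6.41 and 6.09 on N2 arrays 1 to 5. The highest xpa-1 arrays were replicates 2 and 5, both above every N2 array, and the other 3 lay within the N2 range. The strain means were 6.63 ± 0.19 in xpa-1 and 6.45 ± 0.23 in N2 (SD, n = 5 each). Of the 9 differences this was the highest, at 0.18 (SE 0.13, limma adjusted p = 1), and an exact permutation test over all divisions of the arrays into 5 and 5, two-sided, gave p = 0.214. The 95% interval of its ratio, xpa-1 over N2, was 0.920 to 1.39.

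The gene nth-1 (R10E4.5, chromosome III) encodes the homologue of bacterial endonuclease III, a glycosylase for oxidised pyrimidines. Its signal was 5.91, 6.13, 5.70, 5.58 and 5.64 on the xpa-1 arrays and 6.15, 6.04, 5.75, 5.78 and 5.49 on the N2 arrays, again in replicate order. Replicates 1 and 2 were the higher ones in both strains. The difference was -0.05 (SE 0.15, limma adjusted p = 1), with an interval of the ratio from 0.764 to 1.22.

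AP endonucleases act next. The worm has enzymes of both bacterial families, EXO-3 of the exonuclease III family, to which human APE1 belongs, and APN-1 of the endonuclease IV family. The exo-3 transcript (R09B3.1, chromosome I) read 6.41, 6.52, 6.07, 5.93 and 6.48 in xpa-1 and 6.63, 6.15, 6.25, 6.27 and 5.64 in N2. It varied most of the 9 genes, with N2 replicates 1 and 5 as the highest and the lowest of all arrays and 1.99-fold between them. Its difference was 0.09 (SE 0.19, limma adjusted p = 1), and its interval of the ratio, 0.793 to 1.44, was the widest of the 9.

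The apn-1 transcript (T05H10.2, chromosome II) read 6.52, 6.86, 6.61, 6.55 and 6.91 in xpa-1 and 6.86, 6.98, 6.73, 6.75 and 6.32 in N2. The highest arrays were N2 replicate 2 and xpa-1 replicate 5. The strain means were 6.69 ± 0.18 in xpa-1 and 6.73 ± 0.25 in N2 (SD, n = 5 each). They differed by -0.04 (SE 0.14, limma adjusted p = 1), so that for both AP endonuclease genes the difference was smaller than its SE.

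PARP-1 and PARP-2 bind DNA breaks and attach poly(ADP-ribose) chains to themselves and to nearby proteins. The parp-1 transcript (Y71F9AL.18, chromosome I) read 5.49, 5.93, 5.75, 5.75 and 6.02 in xpa-1, against 5.93, 5.67, 5.61, 5.81 and 5.25 in N2. Both strains reached about the same highest value, and the N2 arrays reached lower. The difference was 0.13 (SE 0.14, limma adjusted p = 1).

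The parp-2 transcript (E02H1.4, chromosome II) read 7.11, 7.10, 6.87, 6.71 and 7.42 in xpa-1 and 7.38, 7.19, 7.08, 7.16 and 6.67 in N2, a difference of -0.05 (SE 0.16, limma adjusted p = 1). Each strain had 1 array near the low end, xpa-1 replicate 4 and N2 replicate 5. This gene alone among the 9 had another probe set of its own symbol, which read 7.0, 6.94, 6.99, 6.89 and 7.16 in xpa-1 and 7.25, 7.38, 7.25, 7.21 and 6.55 in N2. There 4 of the 5 N2 arrays lay above the highest xpa-1 array and N2 replicate 5 lay below the lowest, so the difference of -0.13 had an exact permutation p of 0.46, two-sided. The SD of this second probe set was 0.10 in xpa-1 and 0.33 in N2 (n = 5 each).

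The remaining genes complete the repair and are shared with replication. PCN-1 is the sliding clamp PCNA, which holds polymerases and other enzymes on DNA. Its transcript (W03D2.4, chromosome IV) read 9.33, 9.36, 9.47, 9.46 and 9.69 in xpa-1 and 9.71, 9.53, 9.48, 9.39 and 9.03 in N2. The mutant arrays all fell inside the N2 range, and the difference was 0.03 (SE 0.13, limma adjusted p = 1, ratio 0.839 to 1.25).

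CRN-1 is the homologue of the flap endonuclease FEN-1, which trims the displaced strand, and it also takes part in DNA degradation in dying cells with the nuclease CPS-6. The crn-1 transcript (Y47G6A.8, chromosome I) read 7.62, 7.78, 7.52, 7.60 and 7.40 in xpa-1 and 7.85, 7.60, 7.56, 7.72 and 7.18 in N2. Its strain means were the closest of the 9, at 7.58 ± 0.14 in xpa-1 and 7.58 ± 0.25 in N2 (SD, n = 5 each). Its interval still allowed a ratio from 0.820 to 1.22.

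LIG-1, DNA ligase I, seals the nick. The lig-1 transcript (C29A12.3, chromosome V) read 7.53, 7.79, 7.37, 7.54 and 7.86 in xpa-1 and 7.91, 7.82, 7.37, 7.48 and 7.14 in N2. Both strains had a pair of high arrays, replicates 2 and 5 in xpa-1 and replicates 1 and 2 in N2. The difference was 0.07 (SE 0.16, limma adjusted p = 1).

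Over the 9 genes the unadjusted limma p ran from 0.21 to 0.988 and the exact permutation p, two-sided, from 0.214 to 1, where the smallest that 5 arrays against 5 allow is 0.00794. The intervals are not corrected for the number of genes. The lowest bound of a ratio was 0.747, for parp-2, and the highest was 1.44, for exo-3, so each gene's interval lay well inside a 2-fold change in either direction and included a ratio of 1. The probe sets of ung-1, exo-3, parp-1 and pcn-1 may bind more than 1 transcript, by the suffix of their names.

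**Figure D2:**
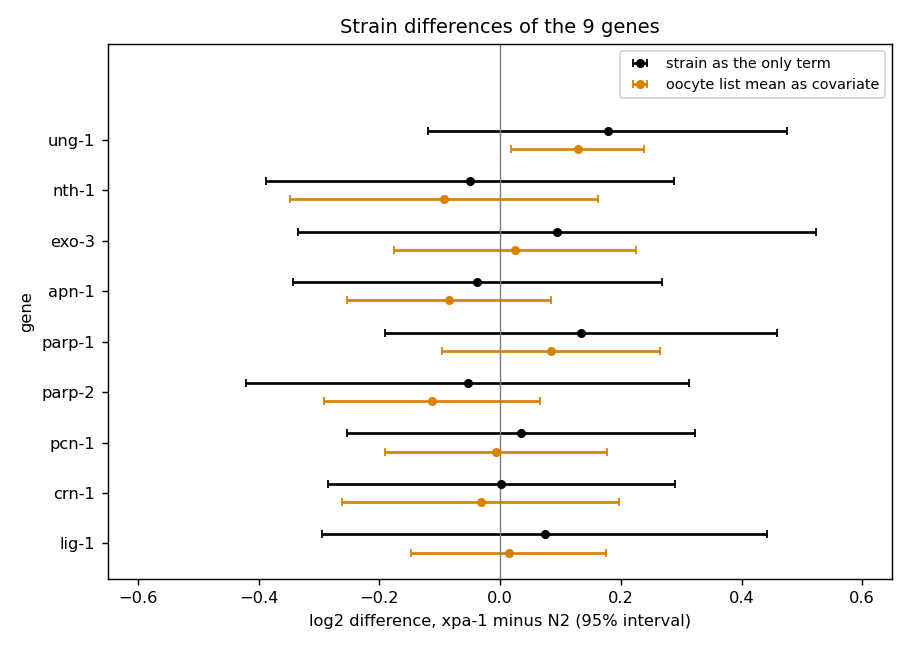
Log2 difference, xpa-1 minus N2, of each gene with its 95% interval, from the limma fit with strain alone (black) and with the mean of the oocyte and germline list as a covariate (orange). All intervals from strain alone include 0, and with the covariate that of ung-1 lies above 0, from 0.02 to 0.24, before adjustment.

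Replicate spread was larger than any strain difference. Between the lowest and the highest of the 10 arrays a gene moved by 1.58-fold (nth-1 and apn-1) to 1.99-fold (exo-3). The SD in xpa-1 was smaller than that in N2 for 8 of 9 genes, with parp-2 as the exception (0.27 in xpa-1 and 0.26 in N2, n = 5 each). As a ratio of SDs, xpa-1 over N2, the contrast was widest for crn-1 (0.555) and pcn-1 (0.562), each with 0.14 in xpa-1 and 0.25 in N2. N2 had the larger SD for 54.7% of all genes and for 66.0% of genes of a similar signal. Tested as the absolute deviation of each array from its strain median, the spread gave 0 of 9 members at an unadjusted p under 0.05 in limma (p from 0.375 to 0.916), where 0.888% of all genes had one. After adjustment over all genes it gave 0 of 17118, with 152 at an unadjusted p under 0.05. With 5 arrays per strain this test calls few genes even unadjusted and has little power after adjustment. Its lack of calls does not show that the spreads are equal.

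The larger N2 spread came with 1 array. N2 replicate 5 was the lowest of the 10 arrays for 9 of 9 genes, and differed from the mean of the other 4 N2 arrays by -0.69 (exo-3) to -0.44 (nth-1). N2 replicate 5 was also the lowest array for 20.4% of all genes and for 44.6% of genes of a similar signal. Without it the SD in N2 was the larger one for 1 of 9 genes, lig-1, at 0.20 in xpa-1 and 0.26 in N2. Also without it the differences of exo-3, pcn-1, crn-1 and lig-1 turned below 0 (-0.04, -0.07, -0.10 and -0.03). Then 2 of 9 genes, ung-1 and parp-1, remained above 0. Of genes with a mean log2 signal of 5 or more, 52.0% were above 0 without that array, with a median of 0.0045. The median of the 9 was then -0.07 and 0 of 9 passed in limma. Without N2 replicate 1, the highest N2 array for 8 of the 9 genes, the median was 0.10 and 0 of 9 passed. In the oocyte, molting and early zygotic lists described next, these arrays also stood at opposite ends of the 10.

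The 9 transcripts went up and down together from culture to culture. With each array expressed as its deviation from the strain mean, the correlation of 2 member genes over the 10 arrays was above 0 for 36 of 36 pairs, with a median Pearson r of 0.76 (0.40 to 0.93) and a median Spearman rho of 0.67. Over all pairs of the 6877 genes with a mean log2 signal of 5 or more the median r was 0.08. Without N2 replicate 5 the members' median was 0.60, and 35 of 36 pairs were above 0. Without N2 replicates 1 and 5 it was 0.46, with 27 of 36 pairs above 0 and 9 below, the lowest of them pcn-1 with crn-1 at -0.78. The median over all gene pairs was taken on the 10 arrays only, so the values with arrays left out have no such comparison. The common movement of all 9 genes thus rests in part on those 2 arrays. These values describe 10 arrays whose points share the scaling of each array, and carry no test.

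Where the members were high, germline and replication transcripts were high, and larval transcripts were low. The oocyte and germline list held 16 genes, among them the eggshell genes cpg-1 and cpg-2. Its list means were 8.56 to 8.91 on the xpa-1 arrays and 8.27 to 8.99 on the N2 arrays. N2 replicate 5 was at the bottom and N2 replicate 1 at the top. Not every gene of the list followed, as N2 replicate 5 was the lowest array for 12 of the 16. The SD of cpg-2 in N2 was 0.08, where the median over the list was 0.31. The members correlated with this list mean with a median r of 0.88, from 0.69 for crn-1 to 0.97 for ung-1 (median rho 0.86). In comparison 35.6% of 6852 other genes with a mean log2 signal of 5 or more reached the r of crn-1, so the members share this pattern with a large part of the transcriptome. Left out were then the 2 arrays farthest from the median of the list, N2 replicates 1 and 5. The r of ung-1 was then 0.96, that of apn-1 0.89 and that of lig-1 0.87, while pcn-1 had 0.44, nth-1 0.41 and crn-1 -0.02. For crn-1 the relation thus rests on those 2 arrays.

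The molting larva list (12 genes, among them mlt-8 and noah-1) ran the other way, with list means of 5.31 to 6.54 on the xpa-1 arrays and 4.95 to 6.77 on the N2 arrays and a median r of -0.77 with the members. The muscle list (13 genes) had a median r of -0.80, the intestine list (10 genes) -0.77 and the neuron list (12 genes) -0.59. Among genes with a mean log2 signal of 5 or more, 40.7% were at least as far below 0 as the weakest member for molting, 46.1% for muscle, 47.2% for intestine and 35.6% for neuron. Early zygotic transcripts (9 of 10 listed genes measured) had a median r of 0.62, and sperm transcripts (10 of 11 measured) one of -0.16. The early zygotic list means were low, at 3.01 to 3.76 in N2, and 30.0% of the brighter genes reached the weakest member. Without the 2 arrays farthest from the median of that list, N2 replicate 5 and xpa-1 replicate 4, the members' median was 0.32 (0.12 to 0.63). N2 replicate 5 had the lowest oocyte list mean and the highest molting and muscle list means of all 10 arrays. Not all intestine genes followed their list mean there, as N2 replicate 5 was the lowest array for 3 of the 10. It was the lowest for 0 of the molting, muscle and neuron genes. None of these markers was at 0 on all arrays, although spe-38, fer-1 and end-3 were at 0 on some. In whole worms, fewer cells of a type and less RNA per cell cannot be told apart, and the part of stage makeup in the members' levels was not tested.

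**Figure D3:**
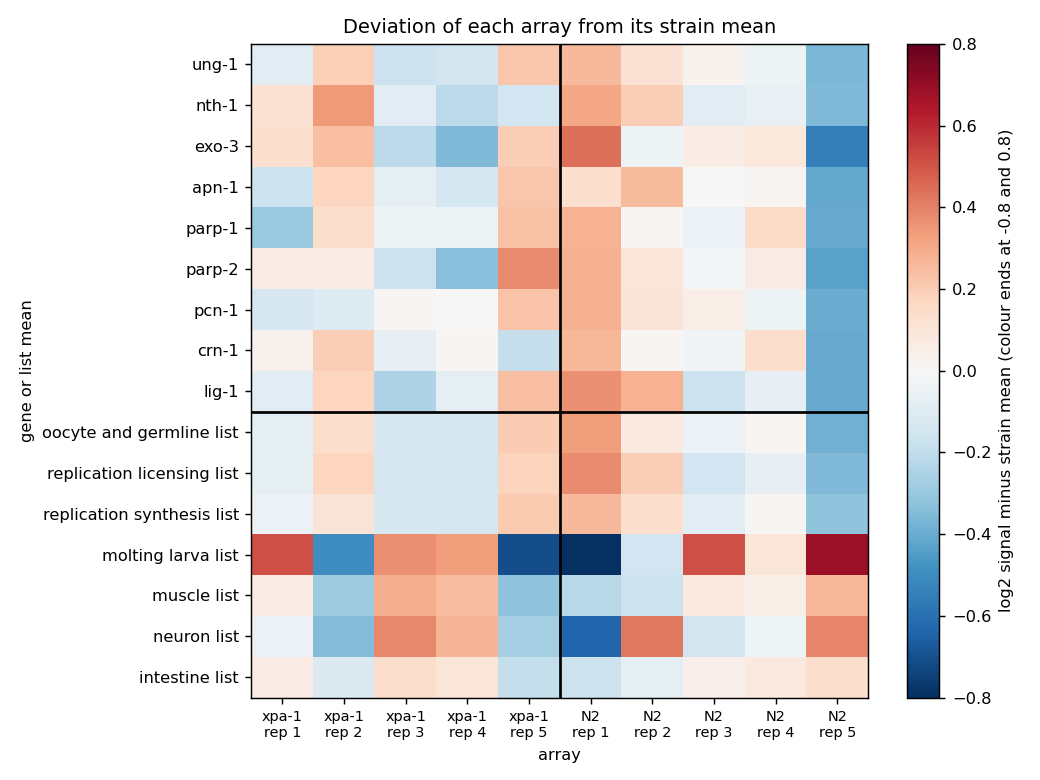
Deviation of the log2 signal from the strain mean on each of the 10 arrays (columns, xpa-1 left of the line and N2 right), for the 9 genes (rows above the line) and 7 list means (below it), red above and blue below the strain mean. On N2 replicate 5 all 9 genes are blue with the oocyte and replication lists, while the molting, muscle, neuron and intestine lists are red.

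With the oocyte list mean as a covariate in the limma fit, the residual SD of the members fell to a median of 0.12, against 0.23 with strain alone. The ratio of both was 0.26 to 0.77 over the members with a median of 0.50, and the median ratio over genes with a mean log2 signal of 5 or more was 0.76. The intervals of the strain differences narrowed accordingly. In this fit ung-1 differed by 0.13 (SE 0.05, unadjusted p = 0.027, limma adjusted p = 0.957). That made 1 of 9 members at an unadjusted p under 0.05, where 4.99% of all genes had one in the same fit. Lower than 0 were parp-2 at -0.11 (SE 0.08), nth-1 at -0.09 (SE 0.11) and apn-1 at -0.08 (SE 0.07), each with a limma adjusted p of 1. The covariate was measured on the same arrays as the members and is a mean of transcripts, with no direct measure of stage. The fall in residual SD follows from the members' correlations with this list mean given above, and is not a separate test.

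**Figure D4:**
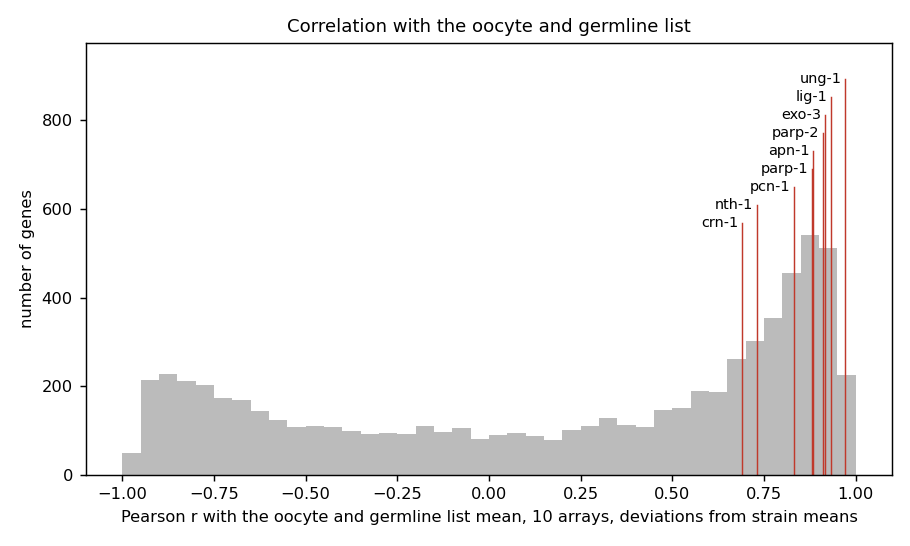
Histogram of the Pearson r of 6852 genes with the mean of the oocyte and germline list, over 10 arrays as deviations from strain means (genes with a mean log2 signal of 5 or more), with the 9 genes as red lines. The 9 genes lie between 0.69 (crn-1) and 0.97 (ung-1), inside the large peak on the right.

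Within xpa-1 the members split in replicate 5. That array was the highest of its strain for 6 of 9 genes, ung-1, apn-1, parp-1, parp-2, pcn-1 and lig-1, and it had the highest oocyte list mean of the strain. It was nevertheless the lowest xpa-1 array for crn-1, and for nth-1 it lay below the strain mean. On replicate 2 the order differed, since nth-1, exo-3 and crn-1 had their highest xpa-1 value there and pcn-1 stood below its strain mean. Among N2 arrays the members were more uniform, with 8 of 9 highest in replicate 1 and 9 of 9 lowest in replicate 5.

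Genes of replication, nucleotide supply, poly(ADP-ribose) turnover, strand break processing and apoptotic DNA degradation were counted in lists. Of 17 genes of replication synthesis and clamp loading, which include the polymerases delta and epsilon and the clamp loader that places PCN-1 on DNA, 0 passed in either direction in limma, with a median difference of 0.09 and 15 of 17 above 0, as were 64.7% of genes with a mean log2 signal of 5 or more. Without N2 replicate 5 the median was 0.01 and 10 of 17 were above 0, as were 52.0% of those brighter genes. The clamp loader subunit gene rfc-3 had 8.74 ± 0.17 in xpa-1 and 8.56 ± 0.25 in N2, and rfc-4 had 8.53 ± 0.19 in xpa-1 and 8.40 ± 0.24 in N2 (SD, n = 5 each). N2 replicate 5 was the lowest array for 14 of the 17. The 11 replication licensing genes had a median of 0.05, which turned to -0.03 without N2 replicate 5, and 0 passed in limma. Among them were the MCM helicase genes mcm-7 at 9.87 ± 0.14 in xpa-1 and 9.78 ± 0.23 in N2 and mcm-5 at 8.64 ± 0.15 in xpa-1 and 8.58 ± 0.28 in N2. Those lists correlated with the members with a median r of 0.87 for synthesis and 0.82 for licensing. Over genes with a mean log2 signal of 5 or more the median r was 0.42 with synthesis and 0.38 with licensing, and 40.8% and 37.2% of them reached the weakest member. Without N2 replicates 1 and 5 the members' median with licensing was 0.57, with crn-1 at 0.02. For synthesis the 2 arrays farthest from the median of the list were N2 replicate 5 and xpa-1 replicate 5. Without those the members' median with synthesis was 0.81, with crn-1 at 0.81. For crn-1 this value depended on the arrays left out, since its r with synthesis was 0.62 on all 10 arrays. It was 0.30 without N2 replicate 5 alone. The omitted xpa-1 replicate 5 had the lowest xpa-1 value of crn-1 and the highest synthesis list mean.

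The nucleotide pool list held 5 measured genes of 6. It includes dut-1, the dUTPase that keeps uracil out of DNA ahead of UNG-1, at 9.72 ± 0.19 in xpa-1 and 9.52 ± 0.32 in N2, and the ribonucleotide reductase gene rnr-2 at 10.03 ± 0.12 in xpa-1 and 9.95 ± 0.24 in N2 (SD, n = 5 each). All 5 differences were above 0, from 0.08 to 0.20 with a median of 0.12, and 0 passed in limma. N2 replicate 5 was the lowest array for 5 of 5. Without it the median was 0.08 and 4 of 5 were above 0, where 52.0% of the brighter genes were.

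Poly(ADP-ribose) is removed again by the glycohydrolases PARG-1 and PARG-2, which with the tankyrase homologue gene tank-1 made a list of 3. The parg-1 transcript stood at 7.74 ± 0.20 in xpa-1 and 7.58 ± 0.31 in N2, and tank-1 at 7.38 ± 0.29 in xpa-1 and 7.29 ± 0.25 in N2. Their differences were 0.09 to 0.34 over the 3 genes, and 0 passed in limma. The highest difference was that of parg-2. The list mean, 5.99 in xpa-1 and 5.80 in N2, lay below parg-1 and tank-1, so parg-2 had a much lower signal than both. This weak signal enters the list mean with the same weight as the others. This list mean followed the members less closely than the replication, nucleotide and strand break lists, with a median r of 0.16 (-0.02 to 0.67), a difference from the other lists that carries no test. Without N2 replicate 5 the median r was -0.21 (-0.43 to 0.53). The median difference of the list was then 0.16, with 3 of 3 genes above 0, where 52.0% of the brighter genes were.

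For strand break processing (8 genes) the median was 0.04, with the nuclease genes mre-11 at 7.54 ± 0.09 in xpa-1 and 7.52 ± 0.17 in N2 and exo-1 at 6.84 ± 0.17 in xpa-1 and 6.85 ± 0.20 in N2. Apoptotic DNA degradation, the other process in which CRN-1 works, had a median of 0.05 over 9 genes, with nuc-1 at 7.85 ± 0.17 in xpa-1 and 7.76 ± 0.20 in N2 and cyn-13 at 7.76 ± 0.14 in xpa-1 and 7.67 ± 0.21 in N2 (SD, n = 5 each). In both lists 0 genes passed in limma, and without N2 replicate 5 the medians were 0.01 for strand break processing and 0.03 for apoptotic DNA degradation. The stage and tissue lists likewise had 0 genes past the threshold, with median differences of 0.03 for oocyte and germline, -0.01 for sperm, 0.03 for early zygotic, -0.07 for molting larva, -0.13 for muscle, 0.05 for neuron and 0 for intestine. Without N2 replicate 5 these turned to -0.05 for oocyte and germline and 0.12 for molting larva, and moved to 0.10 for neuron, -0.06 for muscle, 0.04 for early zygotic and 0.03 for intestine. These values without N2 replicate 5 were added after seeing the data.

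For each member the 2 genes most like it across the 10 arrays were sought among 6868 genes with a mean log2 signal of 5 or more, by the Pearson r of the deviations from strain means. With so many genes searched over 10 arrays, the highest r is high for any gene. For ung-1 they were Y42H9B.3 (r = 0.990) and sun-1 (0.988), and for lig-1 the MCM helicase gene mcm-4 (0.989) and lotr-1 (0.987). The apn-1 pattern was closest to pot-1 (0.992) and F21D5.6 (0.991), that of exo-3 to T12C9.7 (0.990) and ruvb-2 (0.983), and that of parp-2 to zfp-2 (0.978) and rad-50 (0.977). The pcn-1 pattern was closest to clec-88 (0.977) and tiar-1 (0.976), nth-1 to ntl-11 (0.964) and sir-2.4 (0.963), and parp-1 to Y52B11A.8 (0.964) and C17E7.4 (0.962). The lowest maxima were those of crn-1, with sar-1 (0.949) and cdc-26 (0.945). Spearman rho over these 18 pairs was 0.88 to 0.99.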

How the data were processed

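The authors deposited log2 signals per probe set for 10 Affymetrix arrays, 5 per strain, made with Affymetrix Expression Console per the submitters' processing notes. The sources used here do not state how probes were summarised or arrays scaled. Values below a log2 signal of 5 were logs of whole numbers (100% within 0.005 in log2), and 11.2% of values were at the floor of 0. Arrays have no read depth, and their number limits the precision.

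Of 22625 probe sets, 77 controls were left out; 20766 had 1 symbol, 887 several and 895 none. Symbols, locus names and chromosomes came from the platform annotation and the RefSeq gene table of WBcel235; the files name no build, so no coordinates are given, and no sequences were printed. Tests used limma 3.58.1 (lmFit, eBayes, two-sided) in R 4.3.3 on values as deposited, and were checked on simulated data. Genes named outside the 9 members are, per list, those past the threshold or else the 2 brightest, and the 2 most alike per member; spe-38, fer-1 and end-3 were named after their values were seen. The members, the 13 gene lists and the tests were chosen with earlier results of these data known.

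Same-numbered replicates were not paired: over genes with a mean log2 signal of 5 or more, the correlation of their deviations from strain means was -0.75 to 0.07 over 5 pairs. Alternatives were another scaling (quantile, median), an offset of 16, the mean of a gene's probe sets, a filter, other limma options, a replicate block, the oocyte covariate and leaving out arrays.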

Additional observations from a re-analysis of the deposited data

How the results depend on the processing

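Under every alternative tried, 0 of 9 members passed in limma, and the median difference of the members stayed between -0.07 (without N2 replicate 5) and 0.10 (without N2 replicate 1). Differences this close to 0 changed sign with small shifts: crn-1 was -0.015 with quantile normalization, -0.012 with array medians centred, -0.042 with array weights, -0.032 with the oocyte covariate and -0.043 without N2 replicates 1 and 5 (chosen after seeing the data). Likewise exo-3 was -0.0054 with array weights, and pcn-1 was -0.0068 with the oocyte covariate and -0.0047 without N2 replicates 1 and 5. Leaving out 1 array at a time gave ranges of -0.099 to 0.069 for crn-1, -0.066 to 0.105 for pcn-1, -0.043 to 0.205 for exo-3, -0.027 to 0.166 for lig-1, -0.14 to 0.025 for apn-1, -0.138 to 0.027 for nth-1 and -0.161 to 0.029 for parp-2. The differences of ung-1 and parp-1 stayed above 0 throughout, from 0.088 to 0.243 and from 0.033 to 0.209 over the arrays left out.

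Over all genes 19 passed, 7 when only genes with a mean log2 signal of 5 or more were tested, where fewer genes enter, and 5 with the replicate block, although the replicate numbers do not pair the arrays. The number of genes whose spread differed, 0 with all arrays, was 29 to 56 when 1 array was left out, 0 of them members. All of those calls had the larger deviation in the strain left with 4 arrays. With 5 arrays 1 deviation from the strain median is always 0, and with 4 arrays none need be 0. The measure is thus uneven between strains of unequal size, and these counts cannot be read as differences in spread. No member had a signal near the floor.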
